A study of Mus musculus with 17 samples.

Results

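The 43 genes described here encode the machinery of fatty acid oxidation and other well-known targets of PPAR-alpha, and they are a list of named genes. Of the 43, 42 are among the 33840 genes of the small intestine files (Fgf21 has no row there) and 43 are among the 24594 identifiers of the files labelled liver. The 43 genes were placed in 10 roles, from fatty acid uptake to secreted targets. Bulk RNA was sequenced in 17 libraries from wild-type mice, which the labels place in 7 groups. In the small intestine these are crypts after hepatectomy, crypts after sham operation, IEC (intestinal epithelial cells) after hepatectomy and IEC after sham operation, with 2 libraries each. The other 9 libraries are labelled liver, with DSS at day 0, day 10 or day 20 and 3 libraries per day, so all of them carry the DSS label, day 0 included. Crypts are the epithelial pits that hold the intestinal stem cells, and hepatectomy is the surgical removal of liver tissue. Age, sex, the extent of the hepatectomy and the time after it are not given in the sources used here, nor is it said whether libraries came from separate animals, so the p-values below reflect how far these libraries spread, and that spread may be technical alone.

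PPAR-alpha is a nuclear receptor that binds fatty acids and their derivatives, pairs with a retinoid X receptor and raises the transcription of genes that burn fat. Fatty acids enter the cell, are joined to coenzyme A, pass the inner mitochondrial membrane on carnitine and are shortened in repeated cycles of dehydrogenation, hydration, dehydrogenation and thiolysis, while very long chains are shortened in peroxisomes first and some fatty acids are hydroxylated at their far end by Cyp4a enzymes. Liver relies on this route in fasting and passes the product on as ketone bodies, and enterocytes, the absorptive cells of the gut, use many of the same genes to handle dietary fat.

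Total counts per library ran from 26609786 to 43580050 in the small intestine. Those labelled liver had 12742629 to 42669857. The intestinal labels were set against cell type markers. The summed level of 20 enterocyte markers was 14351 and 14307 CPM in hepatectomy crypts against 6818 and 6756 CPM in sham crypts, while hepatectomy IEC had 82051 and 78752 CPM and sham IEC 32808 and 32399 CPM, with none of the 20 at 0. Markers of Paneth cells, which sit at the crypt base, went against the labels: their sum was 690.4 and 686 CPM in hepatectomy crypts against 1519.9 and 1669 CPM in sham crypts, and higher in IEC, at 2689 and 2774 CPM after hepatectomy against 4532 and 4271 CPM after sham operation. Lgr5, a crypt stem cell marker, had 8.66 and 11.6 CPM in hepatectomy crypts against 12.9 and 12.6 CPM in sham crypts, and 14.4 and 14.6 CPM in hepatectomy IEC against 16.0 and 17.1 CPM in sham IEC. The sum of 10 crypt stem cell markers, Lgr5 included, went with the labels. It was 2134 and 2181 CPM in sham crypts against 1889 and 1886 CPM in sham IEC. After hepatectomy it was 1344 and 1359 CPM in crypts against 1004 and 981 CPM in IEC. CPM here and below are counts per 1000000 counts after TMM scaling, which equalises libraries by the bulk of their genes. The libraries labelled liver went against their label at day 0 and day 10. The hepatocyte protein albumin (Alb) stood at 278 to 384 CPM at day 0, 377 to 1164 CPM at day 10 and 53444 to 58000 CPM at day 20, while Olfm4, an intestinal crypt stem cell marker, stood at 6483 to 7178, 2623 to 4803 and 41.2 to 61.9 CPM on the same days. These groups are therefore named by their label and day only. Replicate 3 of day 10 stood apart: it had the lowest total count, a hepatocyte marker sum of 5383 CPM against 2719.8 and 3025 CPM in the other day 10 libraries, an enterocyte marker sum of 4101 CPM against 1638 and 1589 CPM, and a Paneth cell marker sum of 6764 CPM against 88153 and 94963 CPM. Replicate 1 of day 0 had a hepatocyte marker sum of 1447 CPM against 3143 and 2989.7 CPM in the other day 0 libraries, and its chi-square per gene against them was 91.8 and 84.3, where they differed from each other by 7.78. In the file headers, hepatectomy and sham libraries carry separate runs of numbers, so any batch those numbers mark cannot be told apart from the operation. Small intestine and liver-labelled files were made and normalised separately, so levels are compared within each set only.

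The promoters below are shown because they carry the closest matches, among the genes that moved most, to the element that PPAR-alpha is known to bind: a direct repeat of AGGTCA with 1 base of any kind between the copies. RefSeq promoter windows (GRCm38.p6, 250 bases before to 50 after a start site, printed 5′ to 3′ on the gene's strand) were found for 35 of the 43 genes. Without a window, and so not searched, were Cyp4a10, Cyp4a14, Angptl4, Acaa2, Hsd17b4, Crat, Decr1 and Vnn1, some of which moved as much. Capitals mark the match, which in the first 3 lies on the opposite strand, where each copy reads TGACCT. Fabp1 (chr6:71199629-71199928, plus strand) and Acot12 (chr13:91741271-91741570, plus strand) each hold a match with 1 mismatch, starting at positions -67 and -110 from the start site. Cd36 (chr5:17835847-17836146, minus strand) and the first window of Creb3l3 (chr10:81092542-81092841, minus strand) hold one with 2 mismatches, at -63 and -209. In GENCODE these genes begin at 17888801 and 81098874, so both windows belong to start sites inside the gene. The second window of Creb3l3, at the annotated beginning of the gene, holds none. Neither do the windows of Acot1, Pdk4, Acaa1b and Mgll, which also had large changes below.
Fabp1: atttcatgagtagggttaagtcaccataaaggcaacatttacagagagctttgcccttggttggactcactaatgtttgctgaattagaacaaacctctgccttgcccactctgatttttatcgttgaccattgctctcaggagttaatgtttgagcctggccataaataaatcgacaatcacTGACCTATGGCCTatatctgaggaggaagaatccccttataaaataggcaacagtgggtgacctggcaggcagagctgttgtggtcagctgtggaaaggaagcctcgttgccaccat
Acot12: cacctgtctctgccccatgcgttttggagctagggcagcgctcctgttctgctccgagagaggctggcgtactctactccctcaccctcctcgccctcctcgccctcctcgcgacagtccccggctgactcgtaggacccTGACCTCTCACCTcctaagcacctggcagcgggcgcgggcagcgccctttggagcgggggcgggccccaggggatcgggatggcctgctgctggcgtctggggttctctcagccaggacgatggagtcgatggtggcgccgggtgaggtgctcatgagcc
Cd36: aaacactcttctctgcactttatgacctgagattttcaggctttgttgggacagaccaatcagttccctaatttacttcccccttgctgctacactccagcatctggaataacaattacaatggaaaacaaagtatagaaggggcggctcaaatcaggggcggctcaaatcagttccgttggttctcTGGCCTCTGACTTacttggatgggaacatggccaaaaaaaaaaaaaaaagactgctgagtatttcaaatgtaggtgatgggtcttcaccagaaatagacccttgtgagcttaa
Creb3l3: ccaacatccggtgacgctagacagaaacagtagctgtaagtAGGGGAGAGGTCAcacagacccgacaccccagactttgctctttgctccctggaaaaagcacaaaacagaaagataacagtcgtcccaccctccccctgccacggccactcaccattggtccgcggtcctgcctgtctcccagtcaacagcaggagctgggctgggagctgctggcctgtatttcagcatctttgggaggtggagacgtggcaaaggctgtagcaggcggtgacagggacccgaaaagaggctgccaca
With up to 2 mismatches on either strand, 7 of the 35 genes with a window held the repeat (20.0%), against 1190 of 27025 genes (4.40%) with such a window. Slc25a20, Etfa and Plin2 were the other 3. With up to 1 mismatch, 2 of the 35 did, against 0.644% of all genes. A single exact AGGTCA, on either strand, was in 9 of the 35 (25.7%) against 18.1% of all genes. The genes were listed in part as known targets of PPAR-alpha, so these shares are no test of that. A match is a description of these letters and not a measured binding site. Hadha and Hadhb, which encode the alpha and beta subunits of the mitochondrial trifunctional protein, face away from each other on chromosome 5 and their windows share 228 bases.

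Levels between genes were compared per kilobase of exon. Fabp1, the fatty acid binding protein abundant in liver and enterocytes, was the highest of the genes in each of the 7 groups, at a mean of 2875 CPM per kb in hepatectomy crypts against 533 in sham crypts, 11824 in hepatectomy IEC against 4470 in sham IEC, and at 133, 492 and 20442 CPM per kb at day 0, day 10 and day 20. Etfb, the beta subunit of the electron transfer flavoprotein, and Acaa2, the last enzyme of the mitochondrial cycle, were among the 4 highest in every group. Of the 50-base stretches of Etfb, 44.8% occur in other genes, mostly Gm45233, and of those of Hadhb 19.7% do, mostly Gm13910, which limits the values of both throughout. At the low end in the intestine stood the omega hydroxylases: Cyp4a14 had 5 and 1 counts in hepatectomy crypts against 0 and 0 in sham crypts, and 1 and 2 counts in hepatectomy IEC against 0 and 0 in sham IEC. Since 3 counts are the limit that a library at 0 allows, no fold is given for it. Cyp4a14 and Fgf21 are therefore outside the tests in the intestine, which cover 41 of the 43 genes and 18207 genes in all, while 43 of 43 among 16694 were tested in the libraries labelled liver.

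**Figure D1:**
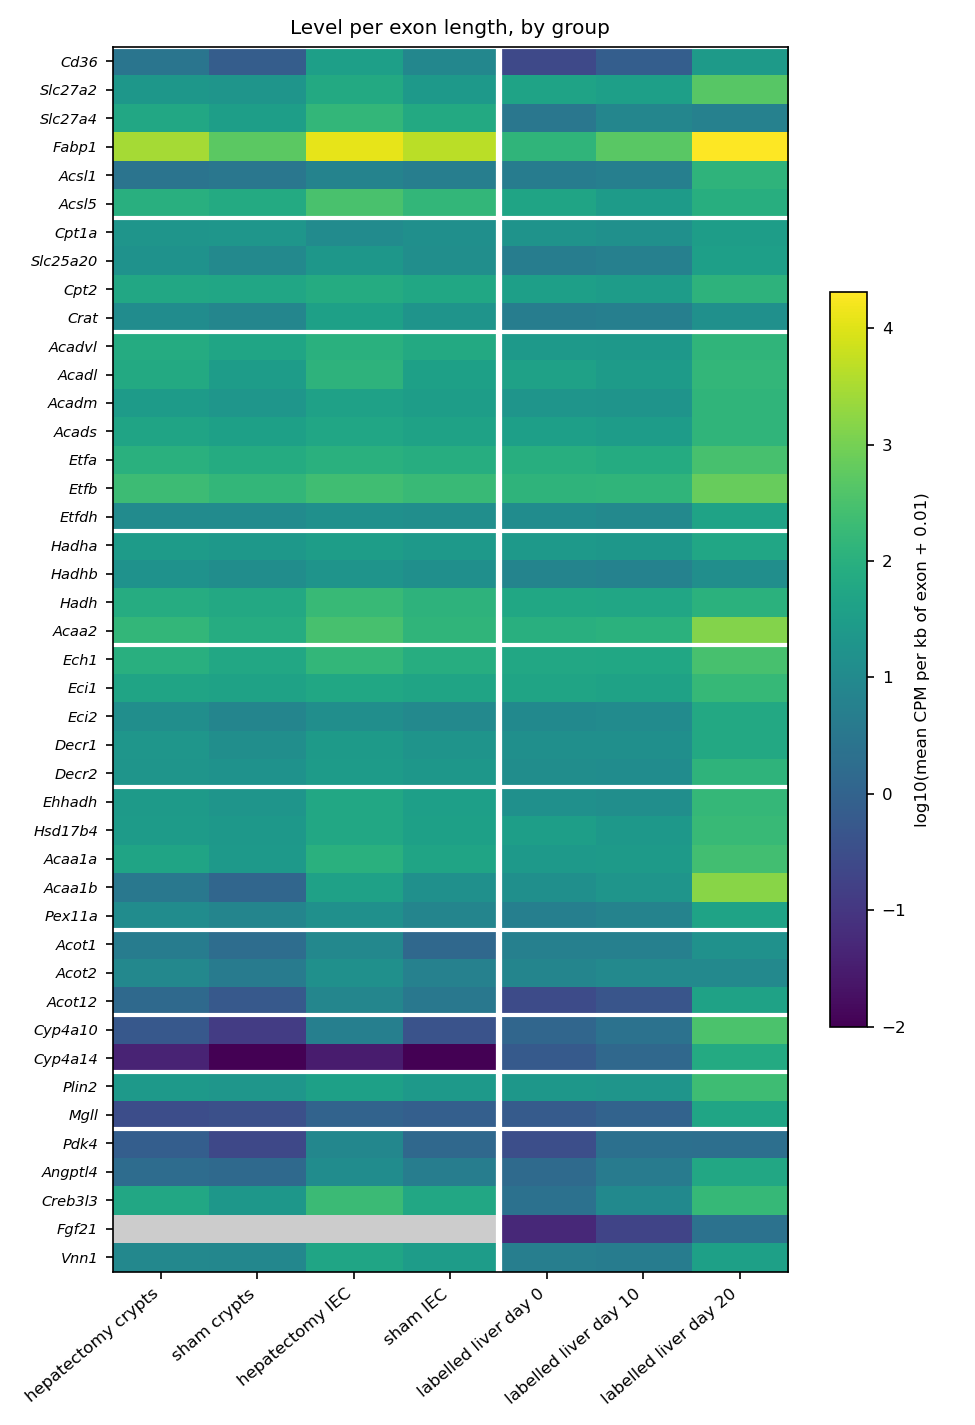
Mean level of each gene by group, as log10 of CPM per kb of exon plus 0.01 (colour), with roles separated by white lines and the 2 separately normalised sets by a wider one. Fabp1 is the brightest row, grey marks Fgf21 in the files that have no row for it, and the day 20 column is brighter than the day 0 column for nearly every gene.

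After hepatectomy most of the machinery rose in both compartments relative to the bulk of genes. In crypts, 35 of the 41 tested genes rose and 1 fell at an adjusted p under 0.05 (edgeR's quasi-likelihood test, Benjamini-Hochberg over all genes), where 19.2% of all genes rose and 18.3% fell. In IEC, 39 rose and 1 fell, where 19.5% of all genes rose and 18.3% fell. The median log2 fold change of the 41 was 0.52 in crypts and 0.76 in IEC, beside 0.01 and 0.02 over all genes. The scaling tends to hold the latter near 0. At 2-fold or more, 10 genes rose in crypts and 17 in IEC (5.71% and 5.68% of all genes), and none fell (3.05% and 2.17%). Summed over the genes, the level was 6229 and 6329 CPM in hepatectomy crypts against 3655 and 3557 CPM in sham crypts, and 15891 and 15344 CPM in hepatectomy IEC against 7543 and 7571 CPM in sham IEC. Fabp1 alone held a large part of the change in these sums. It made up 1575 and 1605 CPM in hepatectomy crypts against 305 and 285 CPM in sham crypts. In IEC it made up 6743 and 6335 CPM after hepatectomy against 2468 and 2477 CPM after sham operation. The 2 comparisons do not share libraries. TMM multiplies library totals by 1.28 and 1.21 in sham crypts against 0.999 and 0.986 in hepatectomy crypts. In sham IEC it does so by 0.973 and 0.968 against 0.844 and 0.828 in hepatectomy IEC. This raises every level after hepatectomy. Of counts, the genes took 0.468 and 0.429% in sham crypts against 0.623 and 0.624% in hepatectomy crypts. In IEC they took 0.734 and 0.733% against 1.34 and 1.27%. How far small rises, as of Hadha, Acads and Plin2 in crypts, rest on the scaling was not tested.

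**Figure D2:**
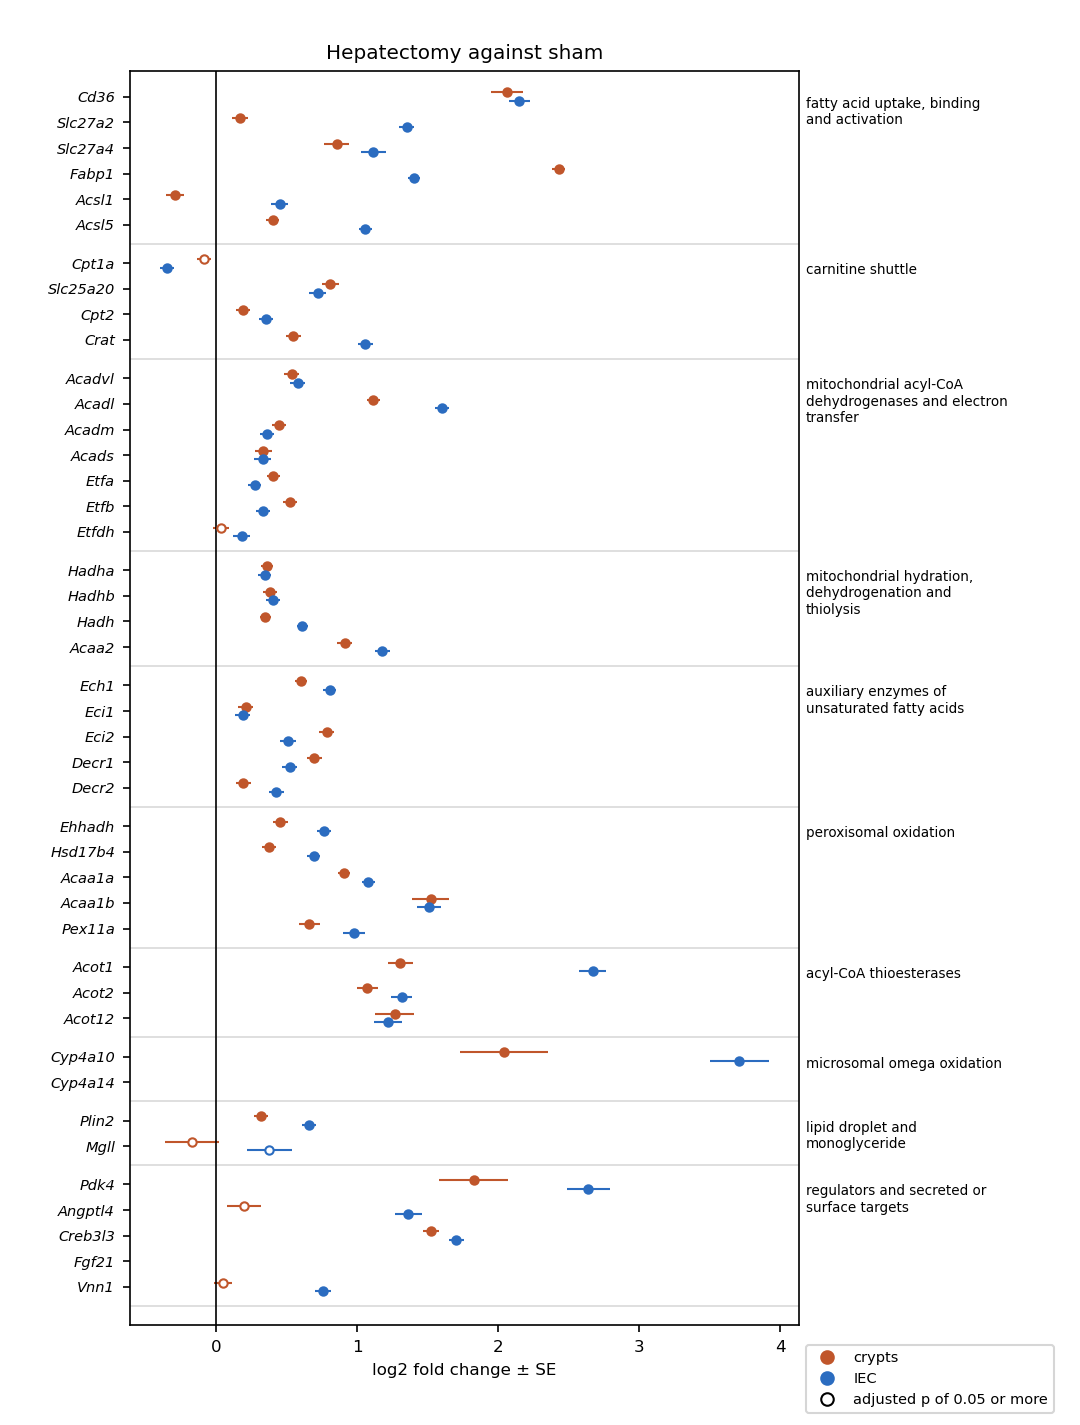
Log2 fold change ± SE (x axis) of each gene after hepatectomy relative to sham operation, by compartment and role. Filled points have an adjusted p under 0.05. Only Acsl1 in crypts and Cpt1a in IEC are filled left of the zero line.

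The uptake and activation genes held some of the largest changes. Fabp1 had 1575 and 1605 CPM in hepatectomy crypts against 305 and 285 CPM in sham crypts (log2 fold change 2.43 ± 0.05, adjusted p = 3.33e-11), and 6743 and 6335 CPM in hepatectomy IEC against 2468 and 2477 CPM in sham IEC (1.40 ± 0.04, 2.81e-10). Cd36, the membrane fatty acid translocase, had 9.77 and 11.1 CPM in hepatectomy crypts against 2.58 and 2.44 CPM in sham crypts (2.06 ± 0.11, 5.23e-08). In IEC it had 137 and 129 CPM after hepatectomy against 31.8 and 28.2 CPM after sham operation (2.15 ± 0.08, 7.45e-10). In none of these did the groups overlap, which with 2 libraries per group also happens in genes without a change. The acyl-CoA synthetases, which activate fatty acids, and the transport proteins of the Slc27a family were less uniform. Slc27a4, the transporter of the enterocyte, had 272 and 278 CPM in hepatectomy crypts against 156 and 148 CPM in sham crypts (0.85 ± 0.09, 1.7e-05) and rose by 1.11 ± 0.09 in IEC. Slc27a2 had 257 and 248 CPM in hepatectomy IEC against 97.6 and 100.2 CPM in sham IEC (1.35 ± 0.05, 2.08e-09), and 81.1 and 85.3 CPM in hepatectomy crypts against 76.9 and 71.4 CPM in sham crypts (0.17 ± 0.05, 0.0281). That crypt call was lost without either of sham crypt replicate 2 (0.12, 0.223) and hepatectomy crypt replicate 2 (0.12, 0.183), without either sham IEC library (0.16 each, 0.0531 and 0.0527) and without the filter on low counts (0.12, 0.137).

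Acsl1, the long-chain synthetase that PPAR-alpha is known to induce in liver, moved in opposite directions. It fell to 27.6 and 27.8 CPM in hepatectomy crypts, against 34.3 and 33.7 CPM in sham crypts (-0.29 ± 0.06, adjusted p = 0.00304), and reached 73.4 and 69.3 CPM in hepatectomy IEC, against 50.2 and 54.3 CPM in sham IEC (0.45 ± 0.06, 8.7e-05). Acsl5, the main synthetase of the small intestine, rose by 0.40 ± 0.04 in crypts and by 1.06 ± 0.05 in IEC, to 473 and 470.4 CPM in hepatectomy crypts against 357 and 358 CPM in sham crypts, and to 1588 and 1457 CPM in hepatectomy IEC against 729 and 735 CPM in sham IEC.

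The carnitine shuttle carries acyl groups into mitochondria, and its first step, Cpt1a, did not move with the rest. Cpt1a had 80.2 and 86.3 CPM in hepatectomy IEC against 105 and 107 CPM in sham IEC, so it fell by 0.35 on the log2 scale (SE 0.05, adjusted p = 0.00016). In crypts it had 151 and 150.3 CPM after hepatectomy against 160.3 and 159 CPM after sham operation, which did not pass the test (adjusted p = 0.189). Slc25a20, the carnitine-acylcarnitine carrier of the inner membrane, had 76.3 and 81.7 CPM in hepatectomy crypts against 46.7 and 43.6 CPM in sham crypts (0.81 ± 0.06, 7.95e-07) and rose by 0.72 ± 0.06 in IEC. Crat, which exchanges short acyl groups with carnitine, had 212 and 197 CPM in hepatectomy IEC against 98.9 and 97.5 CPM in sham IEC (1.06 ± 0.05, 1.85e-08) and rose by 0.55 ± 0.06 in crypts. Cpt2, which returns the acyl group to coenzyme A inside the mitochondrion, rose by 0.36 ± 0.05 in IEC. Its crypt change was 0.19 ± 0.05 (adjusted p = 0.0107), a call lost without sham crypt replicate 1 (0.20, 0.0555), sham crypt replicate 2 (0.18, 0.0658) or hepatectomy crypt replicate 2 (0.14, 0.0982), and without the filter on low counts (0.14, 0.0619).

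Within the mitochondrial cycle the largest changes were those of Acadl and Acaa2. Acadl, the long-chain acyl-CoA dehydrogenase, had 136 and 136 CPM in hepatectomy crypts against 63.0 and 62.8 CPM in sham crypts (1.11 ± 0.05, adjusted p = 5.54e-09) and 238 and 232 CPM in hepatectomy IEC against 78.5 and 76.7 CPM in sham IEC (1.60 ± 0.05, 1.82e-10). Acaa2 had 219 and 229 CPM in hepatectomy crypts against 125 and 114 CPM in sham crypts (0.91 ± 0.05, 1.11e-07), and 462 and 440.1 CPM in hepatectomy IEC against 202 and 196 CPM in sham IEC (1.18 ± 0.05, 7.15e-09). The very long, medium and short chain dehydrogenases Acadvl, Acadm and Acads rose by 0.53, 0.45 and 0.33 in crypts and by 0.58, 0.36 and 0.33 in IEC (SE 0.05 to 0.06). Etfa and Etfb, the subunits of the flavoprotein that takes their electrons, rose by 0.41 and 0.52 in crypts and by 0.27 and 0.33 in IEC. Etfdh, which hands these electrons to ubiquinone, was at 85.1 and 82.5 CPM in hepatectomy crypts against 81.2 and 82.8 CPM in sham crypts (adjusted p = 0.712), with overlapping groups. Its rise in IEC, 0.18 ± 0.06 (0.0284), was lost in 5 of the 8 fits that left out a library, where it ranged from 0.10 to 0.24, and without the filter (0.12, 0.199). Hadha and Hadhb rose by 0.36 and 0.38 in crypts and by 0.34 and 0.40 in IEC. Hadh, the short-chain 3-hydroxyacyl-CoA dehydrogenase, had 901 and 913 CPM in hepatectomy IEC against 598 and 589 CPM in sham IEC (0.61 ± 0.04, 1.13e-07) and rose by 0.35 ± 0.04 in crypts.

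The auxiliary enzymes reshape the double bonds of unsaturated fatty acids so that they can enter the cycle. Ech1, a dienoyl-CoA isomerase, had 213 and 214 CPM in hepatectomy crypts against 140.1 and 141 CPM in sham crypts (0.60 ± 0.04, adjusted p = 7.68e-07) and rose by 0.80 ± 0.04 in IEC. Eci2, an enoyl-CoA isomerase of peroxisomes and mitochondria, had 72.5 and 73.0 CPM in hepatectomy crypts against 42.0 and 42.6 CPM in sham crypts (0.78 ± 0.05, 3.93e-07) and rose by 0.51 ± 0.05 in IEC. Decr1, the mitochondrial dienoyl-CoA reductase, rose by 0.69 in crypts and 0.52 in IEC (SE 0.05 each). Smaller were the changes of its peroxisomal relative Decr2, 0.19 in crypts and 0.42 in IEC, and of the mitochondrial isomerase Eci1, 0.21 and 0.19. In crypts, Eci1 and Decr2 lost their call without sham crypt replicate 1 (0.22 and 0.21), sham crypt replicate 2 (0.21 and 0.17) or hepatectomy crypt replicate 2 (0.17 and 0.15), and Decr2 also without the filter (0.14). In IEC, Eci1 lost it without sham IEC replicate 1 (0.13), sham crypt replicate 1 (0.15) or hepatectomy IEC replicate 1 (0.13), and without the filter (0.13).

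All 5 peroxisomal genes rose in both compartments. Acaa1a, a peroxisomal thiolase, had 216 and 218 CPM in hepatectomy crypts against 117 and 115 CPM in sham crypts (0.91 ± 0.04, adjusted p = 2.28e-08), and 454 and 454 CPM in hepatectomy IEC against 221 and 209 CPM in sham IEC (1.08 ± 0.04, 2.8e-09). Its paralog Acaa1b had 5.72 and 7.40 CPM in hepatectomy crypts against 2.32 and 2.28 CPM in sham crypts (1.52 ± 0.13, 3.2e-06), and 81.0 and 78.8 CPM in hepatectomy IEC against 28.4 and 27.6 CPM in sham IEC (1.51 ± 0.08, 4.44e-08). Ehhadh, the peroxisomal bifunctional enzyme, had 186 and 185 CPM in hepatectomy IEC against 109 and 109 CPM in sham IEC (0.76 ± 0.05, 2.37e-07) and rose by 0.45 ± 0.05 in crypts. Hsd17b4, the other bifunctional enzyme, rose by 0.37 and 0.69 in crypts and IEC (SE 0.05 each), and Pex11a, which promotes peroxisome division, by 0.66 ± 0.08 and 0.98 ± 0.08. Of the 50-base stretches of the Acaa1b transcripts, 30.5% also occur in Acaa1a, so reads of this pair can be split between them, and their separate values are uncertain.

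The thioesterases, which release fatty acids from coenzyme A, and the omega hydroxylase Cyp4a10 rose by 2-fold or more in both compartments. Acot1, the cytosolic enzyme, had 18.1 and 17.01 CPM in hepatectomy crypts against 7.34 and 6.89 CPM in sham crypts (1.31 ± 0.09, adjusted p = 4.44e-07), and 35.3 and 32.6 CPM in hepatectomy IEC against 5.56 and 5.10 CPM in sham IEC (2.67 ± 0.10, 9.96e-10). Acot2, its mitochondrial relative, had 19.4 and 19.2 CPM in hepatectomy crypts against 9.16 and 9.24 CPM in sham crypts (1.07 ± 0.08, 5.07e-07) and rose by 1.31 ± 0.07 in IEC. Acot12, an acetyl-CoA hydrolase, had 4.61 and 4.61 CPM in hepatectomy crypts against 1.73 and 2.06 CPM in sham crypts (1.26 ± 0.14, 1.98e-05) and rose by 1.22 ± 0.10 in IEC. Cyp4a10 made the largest rise of the genes in IEC, with 10.8 and 11.6 CPM after hepatectomy against 0.746 and 0.958 CPM after sham operation (3.71 ± 0.21, 4.45e-08). In crypts it had 1.32 and 0.908 CPM after hepatectomy against 0.264 and 0.263 CPM after sham operation (2.04 ± 0.31, 0.000316). Sequence shared with relatives limits these values too: 19.2% of the 50-base stretches of Acot1, 27.7% of those of Acot2 and 29.8% of those of Cyp4a10 occur in other genes, mostly Acot2, Acot1 and Cyp4a32. Libraries differed in how many genes had any count, with 29786 to 30461 in hepatectomy libraries and 24420 to 26186 in sham libraries, and the part of this in the values of genes under 1 CPM was not tested.

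Droplet and regulatory genes were mixed. Plin2, which coats lipid droplets, had 87.4 and 88.5 CPM in hepatectomy crypts against 71.8 and 69.6 CPM in sham crypts (0.32 ± 0.05, adjusted p = 0.000289) and rose by 0.66 ± 0.05 in IEC. Mgll, the monoglyceride lipase, did not pass the test: it had 1.497 and 1.56 CPM in hepatectomy crypts against 1.82 and 1.65 CPM in sham crypts (adjusted p = 0.516), and 4.76 and 5.57 CPM in hepatectomy IEC against 3.73 and 4.22 CPM in sham IEC (0.0889). Creb3l3, the membrane-bound transcription factor CREBH of liver and gut, had 187 and 187 CPM in hepatectomy crypts against 68.6 and 61.7 CPM in sham crypts (1.52 ± 0.05, 1.34e-09), and 606 and 593 CPM in hepatectomy IEC against 187 and 181 CPM in sham IEC (1.70 ± 0.05, 2.76e-10). Pdk4, the kinase that turns off pyruvate dehydrogenase when fat is burned, had 2.35 and 3.07 CPM in hepatectomy crypts against 0.940 and 0.637 CPM in sham crypts (1.83 ± 0.24, 0.000116), and 31.8 and 27.8 CPM in hepatectomy IEC against 4.14 and 5.44 CPM in sham IEC (2.64 ± 0.15, 6.02e-08). These 2 rose in both compartments, while the next 2 passed the test in IEC and not in crypts. Angptl4, a secreted inhibitor of lipoprotein lipase, had 41.3 and 42.9 CPM in hepatectomy IEC against 16.2 and 16.5 CPM in sham IEC (1.36 ± 0.09, 2.85e-07), and 5.14 and 6.56 CPM in hepatectomy crypts against 5.05 and 5.23 CPM in sham crypts (0.219, overlapping groups). Without hepatectomy crypt replicate 1 its crypt change passed the test (0.36, 0.0309). Vnn1, the pantetheinase of the cell surface, had 127 and 119.9 CPM in hepatectomy IEC against 72.7 and 73.4 CPM in sham IEC (0.76 ± 0.06, 4.9e-07), and 21.0 and 21.3 CPM in hepatectomy crypts against 21.2 and 19.8 CPM in sham crypts (0.578, overlapping groups).

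**Figure D3:**
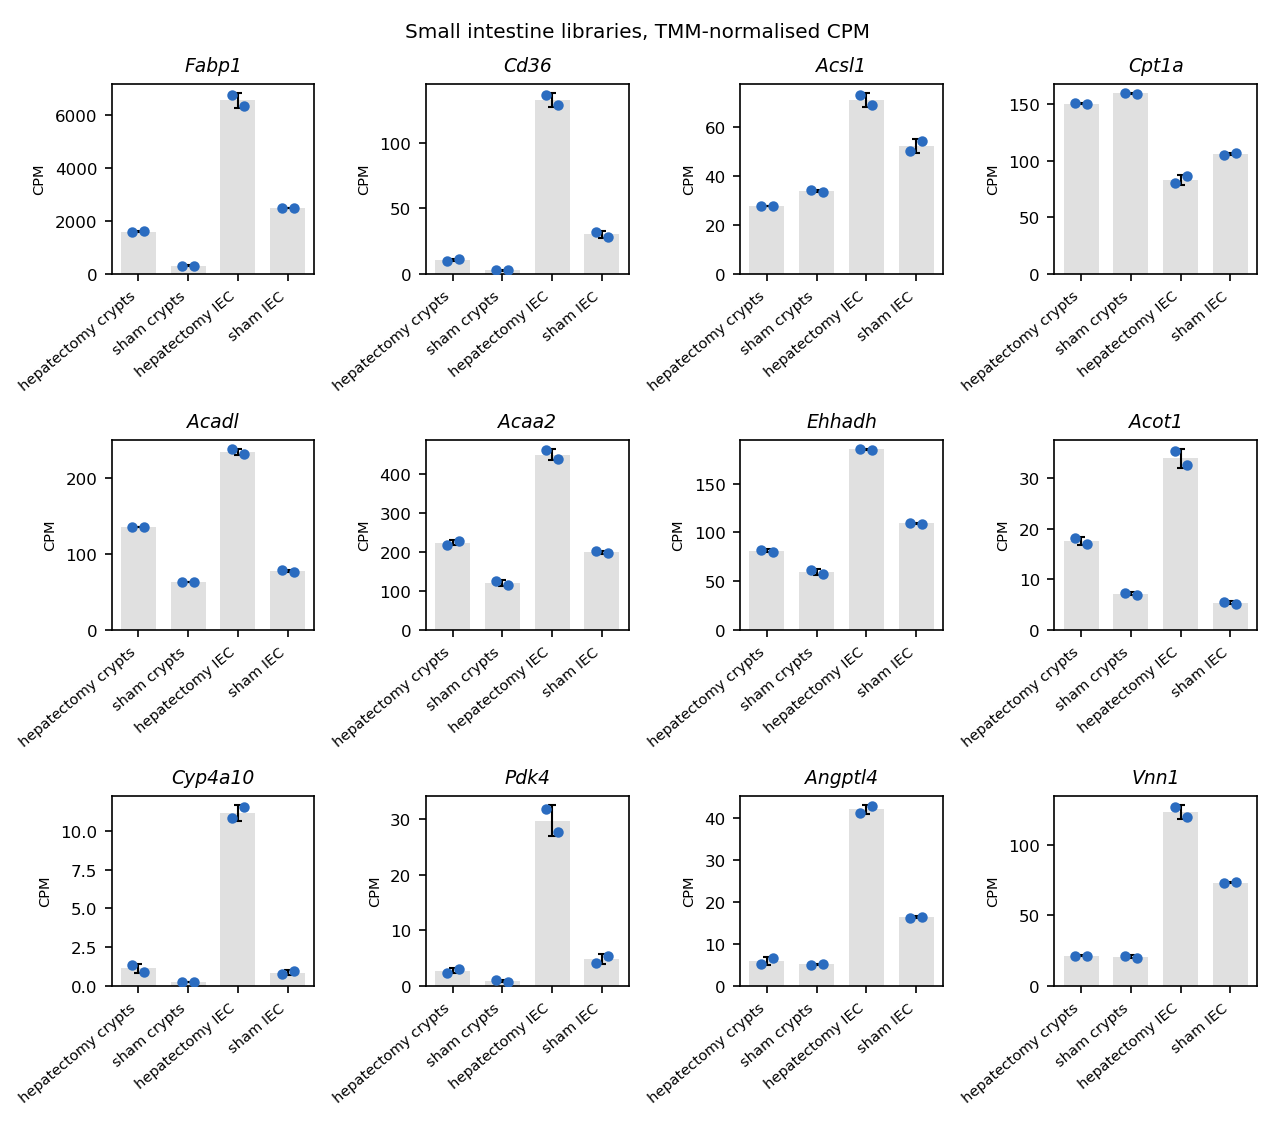
Level in CPM (y axis, from 0) of 12 of the genes in the 8 small intestine libraries; points are libraries, bars are group means and error bars are SD (n = 2). Fabp1 and Acadl are higher after hepatectomy in both compartments, Acsl1 is lower after hepatectomy in crypts, Cpt1a is lower after hepatectomy in IEC, and the crypt groups of Vnn1 and Angptl4 overlap.

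Other features of the libraries moved with the operation. All 20 enterocyte markers rose in both compartments, with a median log2 fold change of 1.15 in crypts and 1.17 in IEC, and their summed levels are given above. Of 12 proliferation markers, 11 fell in crypts and 12 in IEC, with sums of 939 and 911 CPM in hepatectomy crypts against 1327 and 1347 CPM in sham crypts, and of 526 and 522 CPM in hepatectomy IEC against 919 and 911 CPM in sham IEC. The crypt stem cell sums given above were also lower after hepatectomy than after sham operation in both compartments. Paneth cell markers fell in crypts (8 of 8) and in IEC (7 of 8, with 1 higher). Goblet cell markers fell in crypts (8 of 8), with 3 higher and 3 lower in IEC, and lymphocyte markers fell in crypts (10 of 10) and in IEC (8 of 10). Mitochondrially encoded genes held 7.30 to 8.26% of counts in hepatectomy crypts against 3.995 to 4.41% in sham crypts, and 7.86 to 8.77% in hepatectomy IEC against 10.1% in both sham IEC libraries. The part of these in the changes of the fatty acid genes was not tested. In bulk samples, more cells of a type and more RNA per cell cannot be told apart. Markers of adipocytes, which also use many of these genes, rose too (5 of 5 tested of 9 listed), with sums of 69.4 to 70.0 CPM in hepatectomy crypts against 33.9 to 36.9 CPM in sham crypts and 169 to 171 CPM in hepatectomy IEC against 86.9 to 87.3 CPM in sham IEC. The adipocyte-restricted Adipoq stayed at or under 0.197 CPM and Plin1 at or under 0.321 CPM in all 8 libraries.

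Of 95 tested genes on 5 further lists around the same pathway (108 listed), 46 rose and 6 fell in crypts and 53 rose and 11 fell in IEC. Of all genes tested, 19.2% rose and 18.3% fell in crypts and 19.5% rose and 18.3% fell in IEC, and each list below is to be read beside these shares. The ketone body list was split: of 7 genes, 3 rose and 1 fell in crypts, and 3 rose and 2 fell in IEC, among them the monocarboxylate carrier Slc16a1, which fell in IEC (-0.52 ± 0.06, 2.22e-05). Peroxisomal genes rose in 19 of 28 cases in crypts and 23 of 28 in IEC, with no fall called. Among them were catalase (Cat, 0.82 and 1.13, SE 0.04 each) and the epoxide hydrolase Ephx2 (0.88 ± 0.05 and 1.33 ± 0.04). Ppara, the receptor itself, had 28.5 and 28.6 CPM in hepatectomy crypts against 20.5 and 19.2 CPM in sham crypts (0.53 ± 0.07, 0.000165), and 43.5 and 46.6 CPM in hepatectomy IEC against 21.9 and 19.7 CPM in sham IEC (1.11 ± 0.08, 2.33e-07). Of 9 receptors, coactivators and corepressors, 6 rose in crypts and none fell, while 4 rose and 2 fell in IEC. Next to Ppara, the coactivator Ppargc1a (0.71 ± 0.07) and the corepressor Ncor1 (0.41 ± 0.06) rose in crypts, and Pparg (1.00 ± 0.13) and Nr1h3 (0.57 ± 0.08) in IEC. Of 22 genes on the mitochondrial list, 5 rose and 2 fell in crypts and 9 rose and 3 fell in IEC. That list also holds genes of other sites: the carnitine carrier Slc22a5 of the plasma membrane rose by 1.012 ± 0.06 in IEC. The peroxisomal isomerase Eci3 rose by 0.73 ± 0.09 in crypts, beside Pccb of propionate breakdown (0.84 ± 0.06) and Acad11 (0.70 ± 0.07). On the list of further uptake, droplet and other targets, 13 of 29 rose and 3 fell in crypts, and 14 rose and 4 fell in IEC. Examples are Fabp2, the intestinal fatty acid binding protein and one of the enterocyte markers above, in crypts (1.55 ± 0.04) and Retsat, a retinol saturase, in IEC (1.63 ± 0.05).

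The crypt response was then set against the IEC response as a difference of the 2 log2 fold changes in one fit. Of the 41 genes, 15 had a lower signed change in crypts than in IEC and 3 a higher one. Of all genes, 10.1% had a lower and 9.15% a higher one. The other 23 of the 41 did not pass the test. The median difference was -0.20, beside 0.00 over all genes. Fabp1 rose more in crypts, by 1.03 ± 0.06 (adjusted p = 5.6e-07). Slc27a2 (-1.18 ± 0.08), Acot1 (-1.37 ± 0.13), Angptl4 (-1.17 ± 0.15) and Cyp4a10 (-1.67 ± 0.44) responded less in crypts, by over 2-fold each. At that size the counts were 1 higher and 4 lower, where 1.72% and 2.19% of all genes were. The difference was -0.74 ± 0.09 for Acsl1, which had fallen in crypts and risen in IEC, and 0.26 ± 0.07 for Cpt1a, which had fallen in IEC. In the mitochondrial cycle 3 of 11 genes passed, Acadl (-0.49 ± 0.07, 0.000323), Hadh (-0.26 ± 0.05, 0.00508) and Acaa2 (-0.27 ± 0.08, 0.0285), and Acads differed by 0.00 ± 0.08. Without sham crypt replicate 1, Acaa2, Ech1, Ehhadh, Hsd17b4, Cyp4a10 and Plin2 lost their call at differences of -0.16, -0.17, -0.21, -0.23, -1.62 and -0.27. Without sham IEC replicate 2 or without sham crypt replicate 2, Cpt1a (0.25 and 0.28) and Eci2 (0.25 and 0.30) lost theirs. Other single libraries also ended the calls of Cpt1a (0.22 without hepatectomy IEC replicate 1, 0.28 without sham IEC replicate 1), of Eci2 (0.31 without sham crypt replicate 1, 0.25 without hepatectomy IEC replicate 2, 0.28 without hepatectomy crypt replicate 2), of Acaa2 (-0.28 and -0.24 without sham IEC replicate 1 and 2, -0.22 without hepatectomy IEC replicate 1, -0.21 without hepatectomy crypt replicate 1) and of Cyp4a10 (-1.497 without sham IEC replicate 1, -1.66 without sham crypt replicate 2). The call of Ech1 (-0.20 ± 0.06, 0.0385) was lost in 7 of the 8 fits that left out a library. Among the further genes, Ppara (-0.59 ± 0.11, 0.00234), Slc22a5 (-1.05 ± 0.08) and Scp2 (-0.50 ± 0.06) responded less in crypts.

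Crypts held lower levels of most of these genes than IEC. In sham mice, 35 of 41 genes were lower in crypts than in IEC and 2 were higher, where 19.3% of all genes were lower and 19.3% higher. The median log2 difference was -0.52, beside 0.02 over all genes. After hepatectomy 37 were lower and 1 was higher (25.6% and 26.3% of all genes), with a median of -0.95, beside 0.01. At 2-fold or more, 12 were lower in sham crypts and 20 in hepatectomy crypts (6.85% and 10.7% of all genes), and none was higher (2.19% and 4.49%). The enterocyte markers were lower in crypts as well, 20 of 20 in sham and 19 of 20 after hepatectomy, and so were the Paneth cell markers, 7 of 8 in sham and 8 of 8 after hepatectomy. The crypt stem cell and proliferation sums given above were higher in crypts than in IEC, both in sham mice and after hepatectomy. The part of these, and of the TMM factors given above, which lower crypt levels relative to IEC, was not tested. In sham mice the widest gaps were in Acaa1b (-3.61 ± 0.12), Cd36 (-3.58 ± 0.10), Fabp1 (-3.07 ± 0.05), Pdk4 (-2.63 ± 0.23) and Acot12 (-2.54 ± 0.13), whose values are given above, and Vnn1 (-1.84 ± 0.06) and Angptl4 (-1.67 ± 0.11) followed. Crat differed by -1.20 ± 0.06 and Hadh by -0.90 ± 0.04, while Acads, Cpt2, Hadhb and Pex11a did not pass the test (adjusted p = 0.154, 0.0733, 0.0504 and 0.856). Cpt1a ran the other way, higher in crypts by 0.59 ± 0.05 in sham mice and by 0.86 ± 0.05 after hepatectomy. Acot1 was higher in sham crypts by 0.41 ± 0.11 (adjusted p = 0.00887), a call lost without sham IEC replicate 2 (0.36, 0.0776) or sham crypt replicate 1 (0.36, 0.0625), and lower in hepatectomy crypts by -0.95 ± 0.08 on the log2 scale.

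In the libraries labelled liver, the genes were far higher at day 20 than at the earlier days. At day 20 against day 0, 42 of 43 rose and none fell, where 33.3% of all genes rose and 38.1% fell, and the median log2 fold change was 2.70 beside -0.16 over all genes. Against day 10, 40 of 43 rose and none fell (30.8% and 40.3% of all genes), with a median of 2.76 beside -0.21. At 2-fold or more the numbers that rose were 37 and 40 (26.2% and 22.6% of all genes), and none fell (28.7% and 32%). The genes took 0.365 to 0.388% of counts at day 0, 0.273 to 0.565% at day 10 and 2.07 to 2.15% at day 20. TMM multiplies library totals by 1.11 to 1.30 at day 0, 1.03 to 1.63 at day 10 and 0.651 to 0.656 at day 20. This raises every level at day 20 relative to the earlier days. Hadh had 14574, 11908 and 10135 counts at day 0 and 14655, 14304 and 15102 at day 20. Library totals were 36717028, 36247451 and 29874354, and 41475231, 39609862 and 42669857. How far rises of about 2-fold or less, as in Hadh, Hadhb, Cpt1a, Acsl5 and Slc27a4, rest on the scaling was not tested. Markers of whole tissues moved in the same comparison: the hepatocyte sum was 1447 to 3143 CPM at day 0, 2719.8 to 5383 CPM at day 10 and 222445 to 223058 CPM at day 20, with 20 of 20 markers higher at day 20 than at day 0. The crypt stem cell sum was 7911 to 8780.1, 4021 to 5984 and 137 to 159 CPM on the same days, with 10 of 10 lower. The effect of the day and that of the tissue in the tube cannot be told apart here. Day 20 against day 0 and against day 10 share the day 20 libraries.

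**Figure D4:**
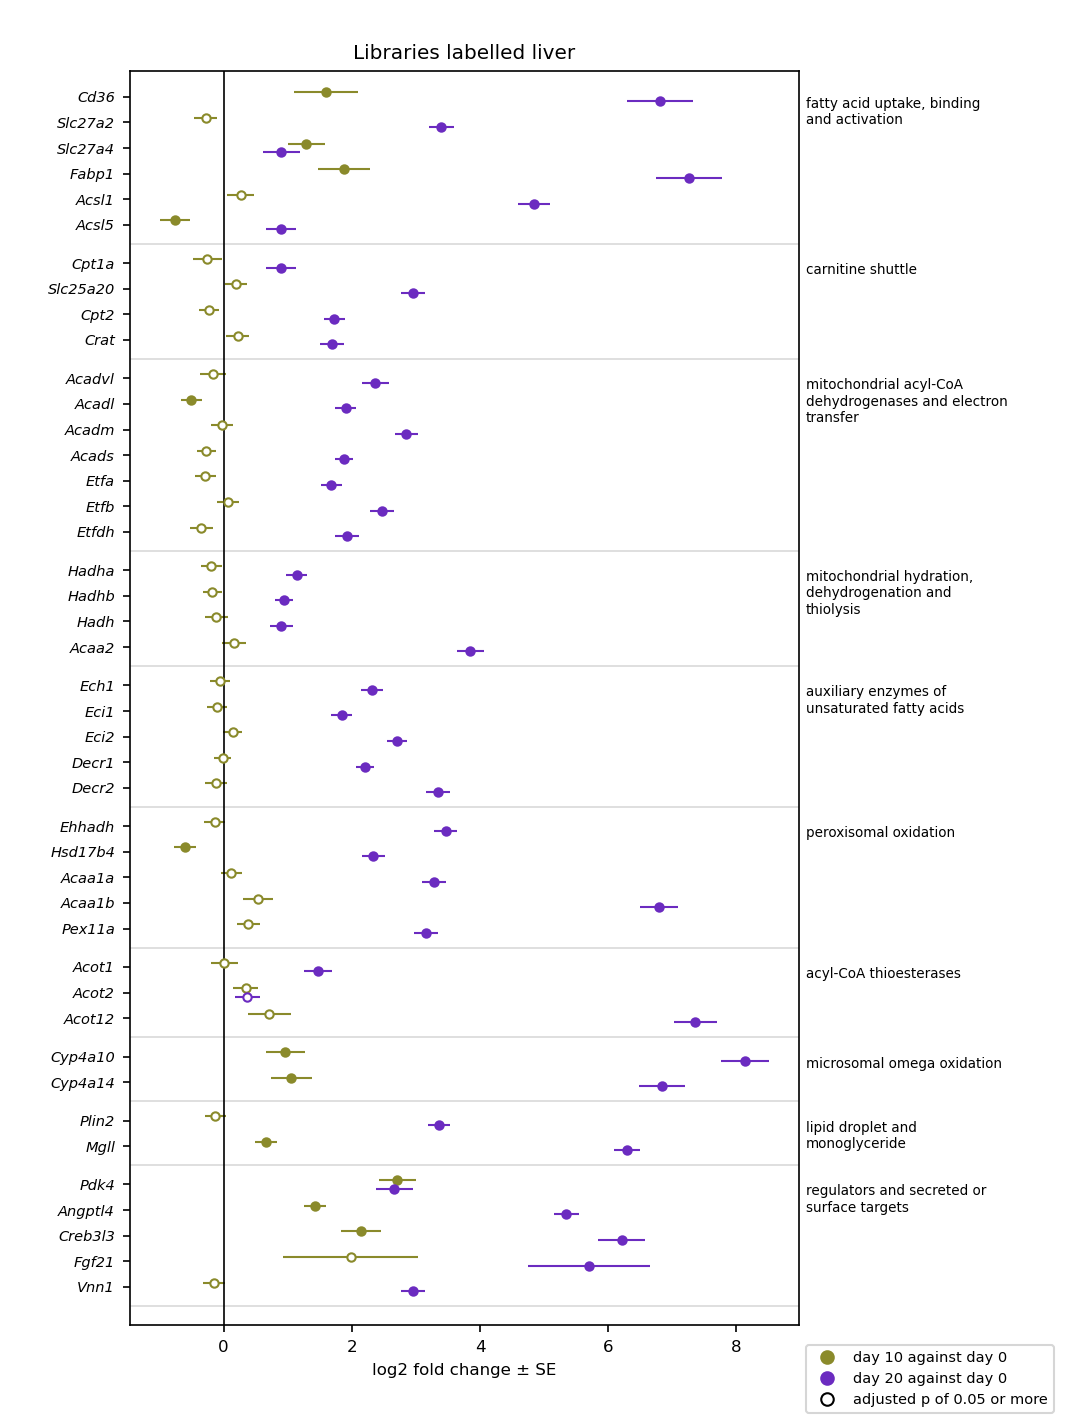
Log2 fold change ± SE (x axis) of each gene in the libraries labelled liver, for day 10 against day 0 and day 20 against day 0, by role. Filled points have an adjusted p under 0.05. Acot2 alone is open for day 20, and most points for day 10 are open and near the zero line.

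At day 20 the genes of uptake and activation, omega oxidation and the peroxisome rose against day 0. Fabp1 had 71.7, 75.3 and 74.5 CPM at day 0, 137, 182 and 497 CPM at day 10, and 11195, 10957 and 11761 CPM at day 20 (day 20 against day 0: 7.26 ± 0.52, adjusted p = 3.2e-08). Cd36 had 0.709, 1.15 and 0.667 CPM at day 0, 1.42, 1.06 and 5.54 CPM at day 10, and 89.5, 106 and 92.5 CPM at day 20 (6.81 ± 0.51, 5.78e-08). The day 10 values of Fabp1 lay between those of the other days, while those of Cd36 overlapped with day 0, and replicate 3 held the highest day 10 value of both genes. Acsl1 had 33.9, 52.2 and 50.8 CPM at day 0 and 1279, 1328 and 1327 CPM at day 20 (4.84 ± 0.25, 1.26e-09), and Slc27a2, which also activates very long chains, rose by 3.40 ± 0.20. Slc27a4 had 11.2, 13.7 and 17.9 CPM at day 0 and 28.2, 25.3 and 26.6 CPM at day 20 (0.90 ± 0.29, adjusted p = 0.0126), and Acsl5 had 282, 216 and 207 CPM at day 0 and 425, 446 and 438 CPM at day 20 (0.89 ± 0.24, 0.00446). Cyp4a10 had 1.96, 3.04 and 2.62 CPM at day 0 and 698, 721 and 723 CPM at day 20 (8.13 ± 0.37, 5.83e-10), the largest change of the genes. Cyp4a14, which was at the floor in the intestine, had 1.66, 1.61 and 1.54 CPM at day 0 and 182, 189.5 and 182 CPM at day 20 (6.84 ± 0.35, 1.46e-09). Acaa1b had 29.5, 25.3 and 26.1 CPM at day 0 and 3144, 2891 and 2942 CPM at day 20 (6.79 ± 0.30, 4.2e-10), while its relative Acaa1a rose by 3.29 ± 0.19. Ehhadh had 42.1, 46.5 and 41.7 CPM at day 0 and 467, 497 and 477 CPM at day 20 (3.47 ± 0.18, 1.44e-09), and Pex11a and Hsd17b4 rose by 3.15 ± 0.19 and 2.34 ± 0.18.

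The genes of the mitochondrial cycle and the carnitine shuttle also rose at day 20 against day 0. Acaa2 had 176, 132 and 130.1 CPM at day 0 and 2147, 2025 and 2144 CPM at day 20 (3.85 ± 0.21, adjusted p = 2.28e-09), and Acadm had 89.4, 67.4 and 66.0 CPM at day 0 and 515, 542 and 552 CPM at day 20 (2.85 ± 0.18, 7.86e-09). The other 6 dehydrogenases and electron carriers rose by 1.68 to 2.47. Hadha, Hadhb and Hadh rose by 1.14, 0.94 and 0.90 (SE 0.15 to 0.18). Of the carnitine shuttle, Slc25a20 rose by 2.95 ± 0.19, Cpt2 by 1.73 ± 0.16, Crat by 1.69 ± 0.19 and Cpt1a by 0.89 ± 0.23. The auxiliary enzymes rose by 1.84 (Eci1) to 3.35 (Decr2). Acot12 had 0.782, 0.978 and 0.821 CPM at day 0 and 141, 145 and 142 CPM at day 20 (7.36 ± 0.33, 4.74e-10), Acot1 rose by 1.48 ± 0.22, and Acot2 was the one gene without a call: 17.4, 14.8 and 15.6 CPM at day 0, 25.2, 21.1 and 14.4 CPM at day 10, and 21.0, 20.0 and 20.9 CPM at day 20 (adjusted p = 0.0998). Acot2 did pass with the stricter filter (0.54, 0.0144) and when day 0 and day 20 were fitted alone (0.28, 0.04).

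Among droplet, regulatory and secreted genes, Mgll, which did not pass the test in the intestine, had 3.13, 3.13 and 3.41 CPM at day 0 and 258, 251 and 251 CPM at day 20 (6.29 ± 0.20, adjusted p = 8.87e-11), and Plin2 rose by 3.36 ± 0.18. Creb3l3 had 7.53, 5.93 and 7.08 CPM at day 0, 18.9, 21.8 and 50.5 CPM at day 10, and 519.97, 492 and 512 CPM at day 20 (6.21 ± 0.36, 4.51e-09). Angptl4 had 6.19, 5.63 and 4.39 CPM at day 0, 17.1, 13.9 and 12.4 CPM at day 10, and 224, 218 and 218 CPM at day 20 (5.34 ± 0.19, 1.1e-10). Vnn1 rose by 2.96 ± 0.18. Fgf21, the fasting hormone of liver, had 4, 1 and 0 counts at day 0, 6, 0 and 7 counts at day 10, and 56, 51 and 78 counts at day 20 (5.71 ± 0.95, 0.000127, a size that depends on the few counts at day 0). Pdk4 was about as high at day 10 as at day 20: 0.807, 1.17 and 1.36 CPM at day 0, 9.83, 5.45 and 6.55 CPM at day 10, and 7.79, 6.99 and 6.48 CPM at day 20. Its day 20 and day 10 groups overlapped, and the difference between them did not pass the test (adjusted p = 0.892). The same held for Acot2 (0.906) and Slc27a4 (0.24).

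**Figure D5:**
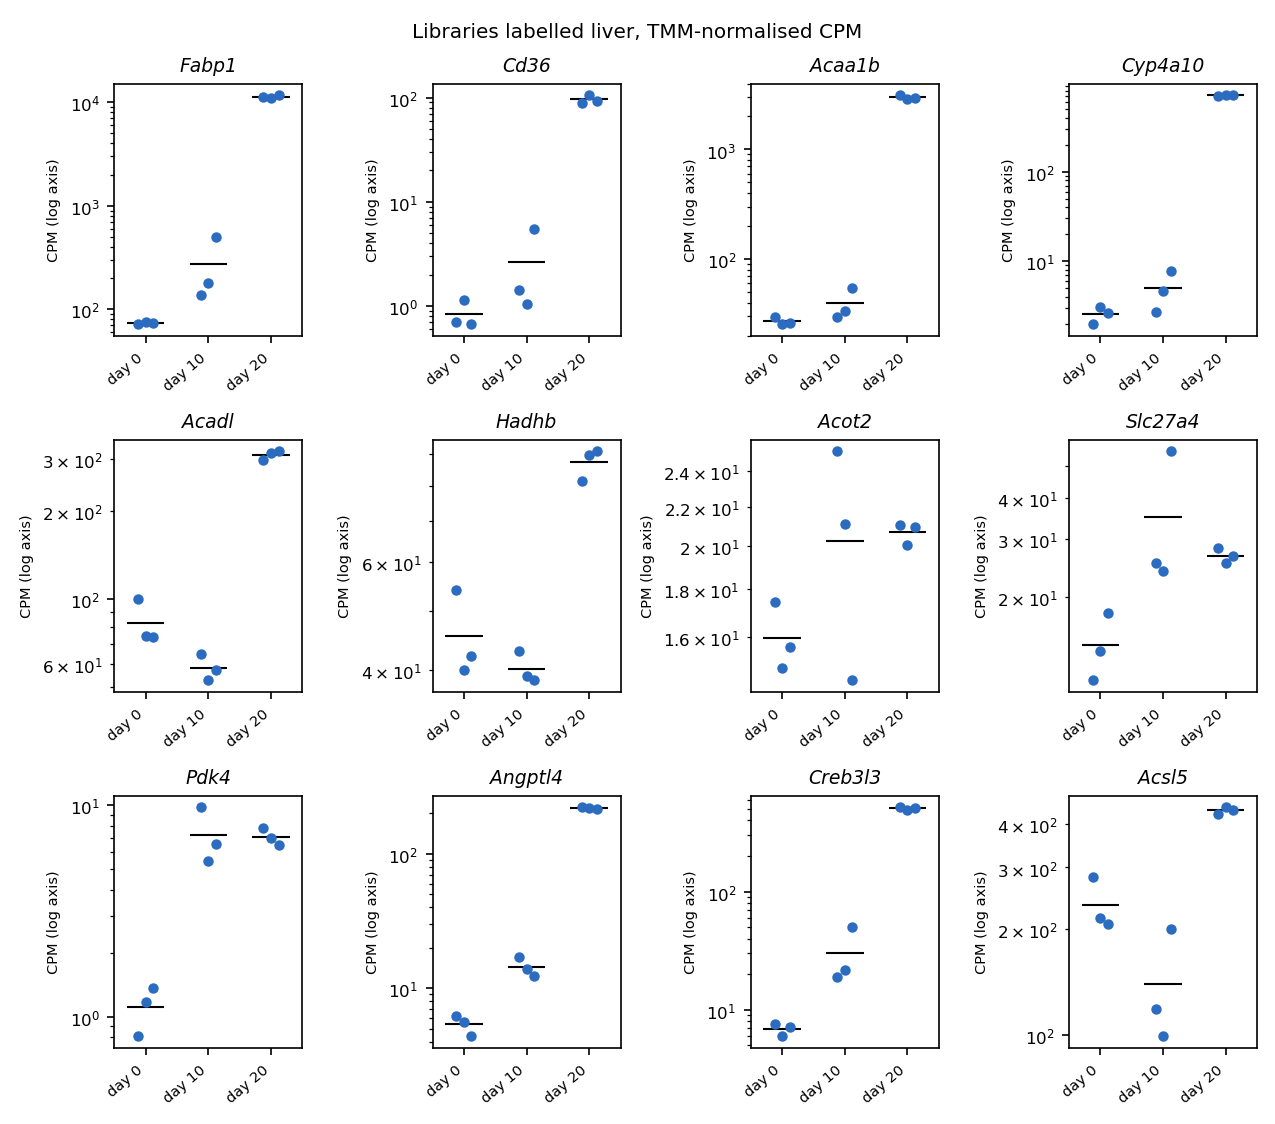
Level in CPM (log y axis) of 12 of the genes in the 9 libraries labelled liver, by day; points are libraries and lines are group means. Fabp1, Cd36, Acaa1b and Cyp4a10 are highest at day 20, Pdk4 is as high at day 10 as at day 20, and the groups of Acot2 lie close together.

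At day 10 against day 0, 9 of the 43 genes rose and 3 fell, where 24.7% of all genes rose and 18.8% fell, and their median change was 0.01 beside 0.10 over all genes. At 2-fold or more 7 rose and none fell (18.5% and 2.3% of all genes). With upper quartile scaling, which moved the median of all genes by 0.20, 13 rose and none fell. Pdk4 rose by 2.71 ± 0.29 (adjusted p = 9.9e-05), Creb3l3 by 2.15 ± 0.31 (0.000874) and Angptl4 by 1.43 ± 0.17 (0.000252), from the values above. The uptake genes Fabp1 (1.88 ± 0.41, 0.0055), Cd36 (1.60 ± 0.50, 0.0229) and Slc27a4 (1.29 ± 0.29, 0.00627) rose as well, and without replicate 3 of day 10 their changes were 1.07, 0.52 and 0.75, with the call of Cd36 lost (0.132). Slc27a4 had 11.2, 13.7 and 17.9 CPM at day 0 and 25.4, 24.0 and 55.4 CPM at day 10. The omega hydroxylases Cyp4a10 (0.96 ± 0.31, 0.0249) and Cyp4a14 (1.06 ± 0.32, 0.0214) had their highest day 10 value in the same library, 7.75 and 5.73 CPM against 2.72 and 4.64 CPM and 1.72 and 2.85 CPM in the others, and without it neither passed (0.47 and 0.45, adjusted p = 0.102 and 0.105). Leaving out day 0 replicate 1 or replicate 3 also ended the calls of Cd36 (1.32 and 1.28), Cyp4a10 (0.67 and 0.82), Cyp4a14 (0.94 and 0.86) and Mgll (0.52 and 0.56), which brought the number that rose to 5. Mgll (0.66 ± 0.18, 0.0128) lost its call without day 0 replicate 2 (0.52) or day 10 replicate 2 (0.44) too, and Cyp4a14 without day 0 replicate 2 (0.91). The 3 genes that fell were Acsl5, with 282, 216 and 207 CPM at day 0 and 119, 99.003 and 201 CPM at day 10 (-0.75 ± 0.24, 0.0241), Hsd17b4, with 140.1, 112 and 99.97 CPM at day 0 and 83.0, 65.6 and 83.8 CPM at day 10 (-0.60 ± 0.17, 0.0167), and Acadl, with 99.7, 74.8 and 73.99 CPM at day 0 and 65.1, 52.8 and 57.4 CPM at day 10 (-0.50 ± 0.16, 0.0247). Without day 10 replicate 2 none of the 3 passed (-0.59, -0.52 and -0.46), and without day 10 replicate 1 the number that fell was 6. Without day 10 replicate 3 Acsl5 fell by 1.15.

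Of the 104 tested genes on the further lists, 78 rose and 14 fell at day 20 against day 0, where 33.3% of all genes rose and 38.1% fell. At day 10 against day 0, 28 rose and 16 fell, where 24.7% of all genes rose and 18.8% fell. Oxct1, with which tissues other than liver use ketone bodies, had 185, 147 and 141 CPM at day 0, 119.9, 122 and 104 CPM at day 10, and 5.62, 4.48 and 4.21 CPM at day 20 (-5.04 ± 0.19, 1.47e-10). Ppara rose by 0.94 ± 0.15 at day 10 (0.00154) and by 4.71 ± 0.17 at day 20 (1.09e-10), with 9.90, 7.46 and 8.19 CPM at day 0, 18.2, 16.2 and 14.8 CPM at day 10, and 220.1, 219 and 227 CPM at day 20. Its partner Rxra rose by 0.94 ± 0.15 and 4.004 ± 0.17. Of the peroxisomal genes, 25 of 29 rose at day 20 and none fell, among them Acox2 (6.78 ± 0.24), Nudt7 (6.38 ± 0.24) and Hacl1 (6.10 ± 0.24), while 3 rose and 4 fell at day 10. Of the mitochondrial list, 16 of 22 rose and 3 fell at day 20, with Acad11 (4.45 ± 0.19) and Acacb (4.08 ± 0.18) among those that rose and Acss1 (-5.92 ± 0.23) among those that fell. Of the further targets, 26 of 36 rose and 7 fell, with Cyp4a32 (7.25 ± 0.19) and the pantetheinase Vnn3 (5.68 ± 0.20) among those that rose and the pyruvate dehydrogenase kinase Pdk3 (-6.22 ± 0.24) among those that fell.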

How the data were processed

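The authors deposited 1 table per library. The 8 small intestine files hold expected counts per gene symbol (36.7% of values are not whole, as deposited), and the 9 files labelled liver hold whole read counts per Entrez gene identifier. STAR, Partek and the mouse build mm10 are named in the submitters' processing notes, with no versions, and strand use and the counting program are not given in the sources used here. Per the labels' protocols, libraries were made from 1 ug of total RNA.

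The genes and lists were chosen with earlier results of these data known. Expected counts were rounded to whole numbers. Of the identifiers, 24570 were matched to symbols, while 24 had no match and account for 3.93 to 22.1% of counts in a library. Each set was fitted separately with edgeR 4.0.16 (R 4.3.3) by its quasi-likelihood test with TMM scaling, after filterByExpr (count of 10, total of 15), with groups as the only term. Adjusted p-values are Benjamini-Hochberg over all genes tested, the SE is the log2 fold change over the square root of F, and a call is an adjusted p under 0.05. A difference of 2-fold or more is a call with an absolute log2 fold change of at least 1. Calls were recomputed with DESeq2 1.42.0, 2 other scalings, 2 other filters, a replicate block, the compared groups alone and each library left out, where a library left alone in its group takes its spread from the rest. No alternative was fitted on library totals alone, without such scaling. The fits were also run on simulated data in which few genes changed. That run cannot show how the scaling holds where many genes change.

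Every gene is named at least once. Values per library are given for up to 3 genes per role with the smallest adjusted p in a comparison and for genes called against the majority, and up to 3 genes of each further list are named. Replicates differed by more than sampling noise, so none was counted as a duplicate. For 19 of the genes another annotated gene overlaps the locus, and reads of the 2 cannot be told apart without strand. Exon lengths are from GENCODE vM21, whose coordinates matched the 42 genes in the intestinal files.

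Some genes of the further lists are not reported here by name.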

Additional observations from a re-analysis of the deposited data

Results flagged for a closer look

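The response to hepatectomy differed between crypts and IEC for 18 of the genes, by a test of the difference itself (crypts minus IEC on the log2 scale, edgeR's quasi-likelihood test). Among uptake and activation genes the differences were -1.18 for Slc27a2, 1.03 for Fabp1, -0.74 for Acsl1 and -0.66 for Acsl5, and in the carnitine shuttle 0.26 for Cpt1a and -0.51 for Crat. In the mitochondrial cycle they were -0.49 for Acadl, -0.26 for Hadh and -0.27 for Acaa2, among auxiliary enzymes -0.20 for Ech1 and 0.27 for Eci2, and in peroxisomes -0.31 for Ehhadh and -0.32 for Hsd17b4. The remaining differences were -1.37 for Acot1, -1.67 for Cyp4a10, -0.34 for Plin2, -1.17 for Angptl4 and -0.71 for Vnn1. Of these 18, 10 held in every alternative that could be fitted.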

How the results depend on the processing

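Of 263 calls of these genes over the 8 comparisons, 235 held in every alternative, and 105 of 4017 refits lost a call with none reversed. With 63 results of further genes, 3 of 961 refits lost a call. Many refits left out a library outside the comparison, which reaches a call only through the shared scaling, filter and spread. For day 10 against day 0, 5 of the 12 calls held in every alternative. Asking for a 2-fold change left 10 higher and 0 lower in crypts, 17 and 0 in IEC, 1 and 4 for the difference of the responses, 0 and 12 for crypts against IEC in sham mice, 0 and 20 after hepatectomy, and 0 lower at day 10. For day 10 against day 0, fitting these groups alone gave 5 higher, and upper quartile scaling and the stricter filter each gave 13 higher and 0 lower. Upper quartile scaling shifted the median of all genes by 0.20 there and by -0.20 for day 20 against day 10, the stricter filter by 0.18 and, for day 20 against day 0, 0.16, and no filter by -0.21 for day 10 against day 0 and 0.11 for day 20 against day 10. Leaving out single libraries gave 31 to 36 higher and 1 lower in crypts, 37 to 39 and 1 in IEC, 1 to 3 and 9 to 15 for the difference, 1 to 2 and 32 to 35 for crypts against IEC in sham mice, 1 and 34 to 37 after hepatectomy, 5 to 10 and 0 to 6 at day 10 against day 0, 42 higher at day 20 against day 0 and 40 against day 10. Signs turned only for genes without a call: in crypts Etfdh without a filter (-0.015), Angptl4 without hepatectomy crypt replicate 2 (-0.0084, with a range of -0.0084 to 0.36 over the libraries left out) and Vnn1 without sham crypt replicate 2 (-0.00082, range to 0.10), and for day 20 against day 10 Slc27a4 without day 10 replicate 3 (0.13, range from -0.57), Acot2 with upper quartile scaling (-0.16) or without day 10 replicate 3 (-0.15, range to 0.31), and Pdk4 without a filter (0.056) or without single libraries (-0.20 to 0.35). The cause of these changes was not tested. With the replicate number as a block the counts were 35 and 1 in crypts, 39 and 1 in IEC, 3 and 14 for the difference, 2 and 35 in sham mice, 1 and 37 after hepatectomy, 9 and 3 at day 10, and 42 and 40 higher at day 20, and the 1 call lost was that of Ech1 in the difference (-0.20, adjusted p = 0.0554). Same-numbered libraries did not deviate together (correlations of -0.03 to 0.04). With 2 libraries per intestinal group, whose deviations mirror each other, this cannot tell whether same-numbered libraries came from the same animal. Depth limits Cyp4a14 in the intestine and Fgf21 at day 0 and day 10, which have 0 to 7 counts per library.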
